A study of Homo sapiens with 6 samples.

Results

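Nascent transcription in irradiated and unirradiated cells was compared 10 min after release from a transcription block, in the 2 GRO-seq libraries that the labels give as 10 min, of 6 libraries in the series. Both came from MRC5VA, an immortalised human lung fibroblast line, and both had been held in DRB (100 µM for 3.5 hours). One culture then received UVC (15 J/m2) and the other was left untreated, after which DRB was washed out of both. Nuclei were taken 10 min later and run on for 5 min with a brominated uridine nucleotide, and the labelled RNA was purified and sequenced. Each library was deposited as 1 profile of 122001 positions, -2 kb to 120 kb, each holding a gene-averaged signal. Position 0 is read here as the annotated start of genes, with transcription running towards positive distances, although the file headers name only "Position". The gene set behind the average and the factor that scales a library are not given in the sources used here, and no value per gene is held in the profiles, so no gene can be named.

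DRB inhibits the kinase of P-TEFb, which RNA polymerase II needs to leave its promoter-proximal pause and elongate. During the block, polymerases already in gene bodies run on and clear, and washout lets paused and newly initiated polymerases enter genes together as a wave. UVC forms pyrimidine dimers in DNA, bulky lesions that stop an elongating polymerase when they lie on the template strand, and the stopped polymerase is the signal for transcription-coupled repair. GRO-seq reports engaged polymerases by position, so the wave can be read as a profile of signal against distance. The signal reports polymerase density over an average of many genes, and in such a bulk average fewer transcribing cells or genes and fewer polymerases per gene cannot be told apart.

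With 1 library in each group there was no replicate check, no test was made, and no p-value or standard deviation between replicates is given. The mean value was 24194 steps per position in the untreated and 28435 in the irradiated 10 min library, a step being the smallest unit of a library's values. What a step counts is not stated, so sequencing depth is unknown and no counting interval can be given. The other 4 libraries had 28343 to 58160 steps per position. To show how far the 10 min ratio varied from bin to bin where no wave was present, the ratio of irradiated to untreated signal was taken in the 70 bins of 1 kb from 50 to 120 kb. It lay between 0.988 and 1.02 in these bins, with an SD of 0.0103 on the log2 scale. Neighbouring bins share genes and are not replicates, so this spread does not cover differences between cultures. From 100 to 120 kb the ratio was 0.915 at 25 min and 0.855 at 40 min, below the range of the far bins at 10 min.

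At 10 min after release the irradiated profile was higher than the untreated one around position 0, lower from about 2 to 20 kb and nearly level with it farther downstream. Of 122 bins of 1 kb, 11 (9.02%) were lower in irradiated cells by at least 1.2-fold, a limit chosen for description. They formed a single run from 3 to 14 kb. By the same limit 1 bin (0.82%) was higher, the one from 0 to 1 kb. The remaining 110 bins lay within 1.2-fold.

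**Figure D1:**
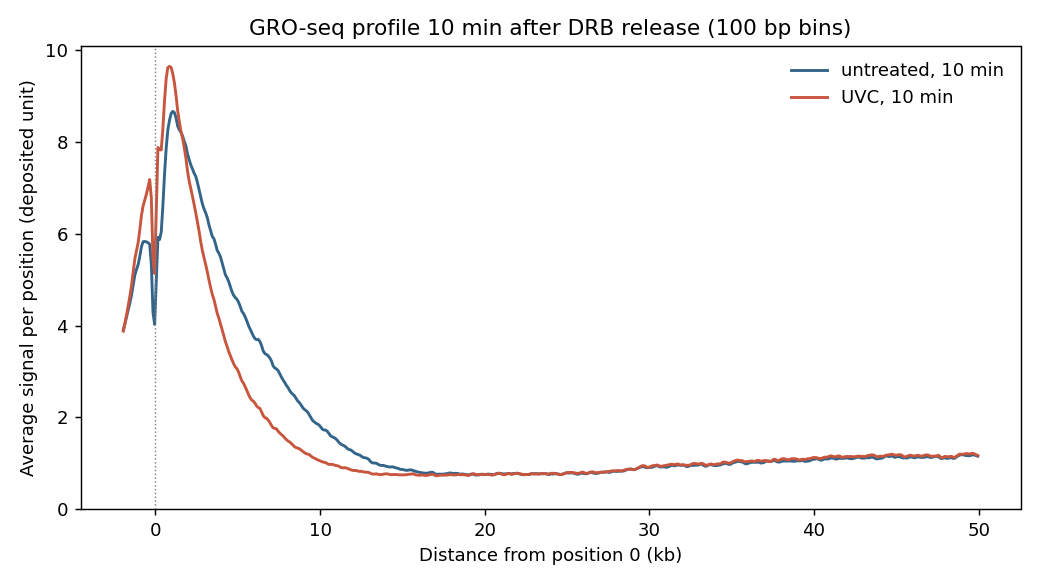
Average GRO-seq signal (vertical axis, deposited unit) against distance from position 0 (horizontal axis, kb, shown to 50 kb) in 100 bp bins, for the untreated (blue) and irradiated (red) library at 10 min. The irradiated line is the higher around position 0, crosses the untreated line shortly before 2 kb and stays below it until about 20 kb.

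After smoothing with a running mean of 2 kb, the irradiated profile first lay below the untreated one at 1.72 kb. The ratio then declined to its lowest value, 0.564, at 8.28 kb, where the irradiated signal was thus 43.6% lower. It was back at 1 at 22.9 kb. Where the 2 profiles met again depended on the smoothing, because the ratio from 19 to 25 kb lay within 1% of 1 in every 1 kb bin, and with a running mean of 0.5 kb they met at 19.2 kb.

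In 1 kb bins the decline with distance was gradual. Signal from 1 to 2 kb was 8.24 in untreated and 8.41 in irradiated cells, a ratio of 1.02. From 2 to 3 kb the values were 7.11 and 6.33, a ratio of 0.889, still within the 1.2-fold limit. From 3 to 4 kb they were 5.94 and 4.65 (ratio 0.782), the first bin past the limit.

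Farther into genes both profiles declined, the irradiated one more steeply only at first. The shortfall in signal was deepest from 5 to 6 kb, where untreated cells had 4.13 and irradiated cells 2.63. As a ratio it was deepest from 8 to 9 kb, at 0.563, where the untreated signal was 2.43 and the irradiated signal 1.37. The absolute and the relative shortfall thus peaked in different places on the leading slope of the untreated wave, the first at a higher untreated signal than the second.

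The ratio then recovered as the untreated wave itself ran out. The bin that starts at 11 kb had a ratio of 0.655, the one that starts at 12 kb 0.710, and the one that starts at 14 kb, the first beyond the run of lower bins, 0.835. From 15 to 20 kb the signal was 0.786 in untreated and 0.750 in irradiated cells, a ratio of 0.954. From 20 to 25 kb it was 0.769 and 0.768, a ratio of 0.998, well inside the spread of the far bins. At these distances both profiles were at their lowest.

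**Figure D2:**
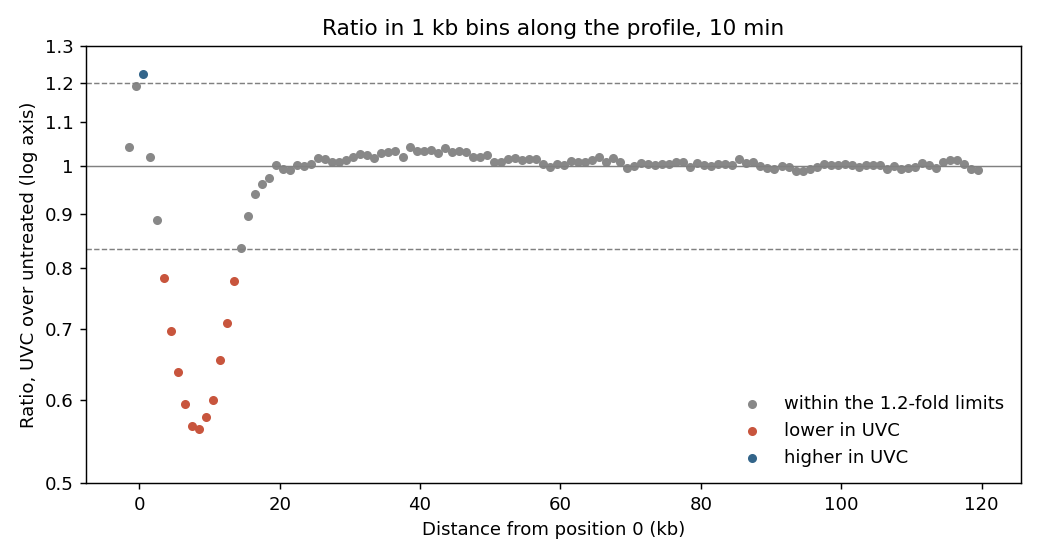
Ratio of irradiated to untreated signal (vertical log axis) in each of 122 bins of 1 kb from -2 to 120 kb (horizontal axis, kb), 1 library a group. Dashed lines mark 1.2-fold; the 11 red bins from 3 to 14 kb are lower in irradiated cells, the blue bin from 0 to 1 kb is higher, and grey bins lie between the limits.

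Averaged over windows, the signal from 2 to 5 kb was 5.99 in untreated and 4.80 in irradiated cells, a log2 ratio of -0.32. From 5 to 10 kb it was 3.004 and 1.78, a log2 ratio of -0.75, which made this the window of largest relative difference among those measured. From 10 to 15 kb it was 1.22 and 0.847, a log2 ratio of -0.52. All 13 bins of 1 kb in these 3 windows were below a ratio of 1. The 0.0103 spread of the far bins holds no variation between cultures, so it gives no measure of error for these 3 log2 ratios.

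The profile around position 0, where paused and newly initiated polymerases accumulate, had the same sequence of landmarks in both libraries and was taller after irradiation. Downstream of position 0 both profiles had a first narrow crest, at 176 bp in untreated and 177 bp in irradiated cells, and then a broad main maximum. The first crest reached 6.04 in untreated and 8.07 in irradiated cells, 1.33 times as high. The main maximum reached 8.69 at 1043 bp in untreated cells and 9.68 at 895 bp in irradiated cells, 1.11 times as high and 148 bp nearer to position 0.

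Upstream of position 0 a second body of signal was present in both libraries, a region in which many promoters are known to transcribe divergently. Its highest point was 5.85 at -674 bp in untreated cells and 7.21 at -341 bp in irradiated cells. The untreated profile was nearly flat over this stretch, at 5.83 from -800 to -700 bp and 5.77 from -400 to -300 bp. The irradiated profile climbed over the same stretch, from 6.61 to 7.18. A dip separated upstream from downstream signal at almost the same place in both, 3.83 at -89 bp in untreated and 4.87 at -91 bp in irradiated cells. Since each library holds a single profile, the strand of the upstream signal was not examined.

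The excess in irradiated cells was centred just inside genes and tapered in both directions. Among the 50 bins of 100 bp from -2 to 3 kb, the ratio was highest from 200 to 300 bp, at 1.33, where untreated cells had 5.87 and irradiated cells 7.83. The 11 bins from -500 to 600 bp were at least 1.2-fold higher. Upstream the ratio tapered to 0.992 in the farthest bin, from -2000 to -1900 bp. Downstream it was 1.09 from 1000 to 1100 bp and first below 1, at 0.994, from 1600 to 1700 bp. The main maximum thus lay on the downstream flank of the excess, not at its centre.

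**Figure D3:**
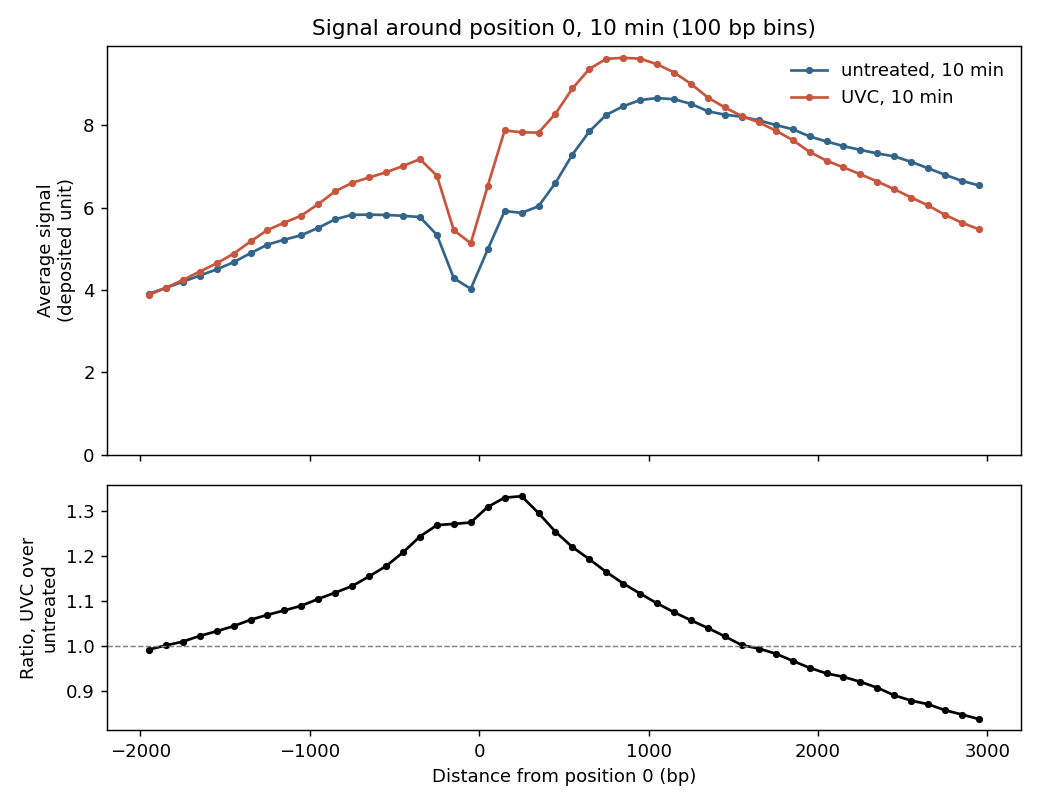
Upper panel, average signal (deposited unit) in 100 bp bins from -2000 to 3000 bp in the untreated (blue) and irradiated (red) library at 10 min; lower panel, the ratio of irradiated to untreated signal in the same bins, with a dashed line at 1. The dip and the first crest coincide, while the ratio is highest, 1.33, from 200 to 300 bp and passes below 1 from 1600 bp on.

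The gain near position 0 was smaller than the loss downstream. Summed over positions, as signal multiplied by kb, the irradiated profile held 1.23 more than the untreated one from -2 kb to 0 and 1.80 more from 0 to the crossing at 1.72 kb. From the crossing to 22.9 kb the sum was 47.4 in untreated and 35.6 in irradiated cells, a difference of -11.8 and a ratio of 0.752. Beyond 22.9 kb the sums were 108.1 and 109.04, a ratio of 1.01. Over the whole profile the irradiated sum was 0.956 times the untreated one. These sums use the profiles as the authors scaled them, and another factor between the libraries would shift all of them together.

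A within-library measure does not depend on that factor. The signal from 2 to 5 kb was 78.6% of the signal from 0 to 2 kb in untreated cells and 56.6% in irradiated cells. For the window from 5 to 10 kb the corresponding values were 39.4% and 21.0%. They were 15.9% and 9.99% between 10 and 15 kb. Over 2 to 10 kb as a whole they were 54.1% and 34.4%, so the share in irradiated cells was 0.635 times that in untreated cells. As the authors scaled the profiles, the signal from 0 to 2 kb was itself 1.11 times as high in irradiated cells. The share thus combines the excess at the start with the shortfall beyond it. The average upstream signal, from -2 kb to 0, was 65.8% and 66.3% of that in the first 2 kb. That average hides a difference in shape, since the highest upstream point was 67.3% of the main maximum in untreated and 74.5% in irradiated cells.

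How far the irradiated wave lagged depended on where along its slope the wave was read. At 90% of the height between the distal background and the smoothed signal at 2 kb, the untreated front lay at 2.57 kb and the irradiated front at 2.31 kb. At 50% the fronts lay at 5.15 and 3.83 kb, a lag of 1.32 kb. At 25% they lay at 7.87 and 5.47 kb, a lag of 2.41 kb, and at 10% at 10.1 and 7.33 kb, a lag of 2.79 kb. Both heights were taken at 2 kb, so the 2 fronts meet there by construction. A lag that grows from there would also be seen for a copy shifted by a fixed distance, so these lags cannot tell the 2 apart.

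At equal signal in both libraries, which needs no separate height for each, the lag also changed along the slope and so was not a fixed distance. With a running mean of 1 kb, the declining untreated profile reached a signal of 7 at 2.60 kb and the irradiated one at 2.16 kb, a lag of 0.439 kb, or 0.289 kb with the irradiated profile scaled to the untreated mean over all positions. A signal of 5 was reached at 4.40 and 3.26 kb (lag 1.15 kb) and a signal of 3 at 7.43 and 5.00 kb (lag 2.43 kb). Below that level the lag grew little. It was 2.77 kb at a signal of 2, 2.99 kb at 1.5 and 2.94 kb at 1. Relative to the untreated distance, the irradiated distance was shortest at a signal of 3, where it was 67.3%, and longer on either side, at 83.1% for a signal of 7 and 78.0% for a signal of 1. At a signal of 8, next to the maximum, the profiles lay only 0.044 kb apart, and the order reversed with a running mean of 2 kb (-0.14 kb).

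**Figure D4:**
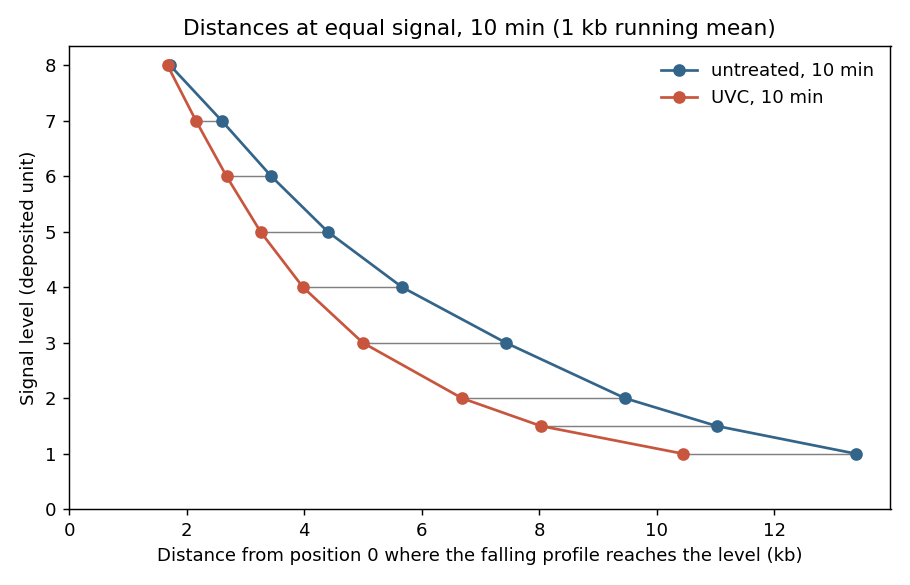
Distance at which the declining profile reaches a given signal (horizontal axis, kb) for 9 signal levels from 8 to 1 (vertical axis, deposited unit), in the untreated (blue) and irradiated (red) library at 10 min, with grey lines joining equal levels. The gap widens from 0.439 kb at a signal of 7 to 2.99 kb at 1.5.

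The distribution of wave signal along genes was also measured without a front, as the distance within which a given share of the signal above each library's lowest smoothed value lay, from position 0 to the place of that value. In untreated cells 50% of the wave signal lay within 3.26 kb, and in irradiated cells within 2.19 kb. A share of 10% was reached at 0.751 and 0.484 kb, and a share of 90% at 8.58 and 6.34 kb. The irradiated distance was 64.4% of the untreated one for the first and 73.8% for the last. The lowest value, which ends the sum, lay nearer to position 0 in irradiated cells (16.8 against 19.7 kb), and this by itself can shorten the irradiated distances.

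Ahead of the wave the 2 libraries were almost superimposed. The lowest smoothed signal was 0.757 in untreated and 0.743 in irradiated cells, 67.1% and 65.8% of the distal background of 1.13 in both. From there signal climbed back with distance in both libraries and regained the distal level, in untreated cells at 44.0 kb and after irradiation at 40.6 kb. From 25 to 50 kb the irradiated signal was slightly the higher, 1.04 against 1.01, and all 25 bins of 1 kb were above a ratio of 1, the highest at 1.04 from 38 to 39 kb. The number of bins above 1 was 22 of 25 between 50 and 75 kb, 14 of 25 between 75 and 100 kb, and 12 of the 20 beyond.

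Small bumps in the far signal were shared by the libraries. In 651 bins of 100 bp from 50 to 115 kb, each taken relative to its local mean, the untreated and irradiated 10 min profiles had Pearson's r = 0.814. Over the same bins, r was between 0.502 and 0.809 for the other 14 pairs of libraries. The bumps were small, with an SD of 1.47% of the local mean in untreated and 1.45% in irradiated cells at 10 min. These correlations are across positions of averages over the same genes, which the libraries share, and are given as a description.

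Set beside the later times, the 10 min comparison had the same order along the gene, with an excess at the start and a shortfall beyond it, over a shorter stretch. The 10 min ratio, smoothed, first lay below 1 at 1.72 kb, the 25 min ratio at 3.65 kb and the 40 min ratio at 5.68 kb. At 10 min 11 of 122 bins were at least 1.2-fold lower, against 36 (29.5%) at 25 min and 67 (54.9%) at 40 min. Bins at least 1.2-fold higher numbered 1 at 10 min, while there were 4 (3.28%) at 25 min and 6 (4.92%) by 40 min. The later pairs were offset far downstream, where the 10 min pair was nearly level. From 100 to 120 kb the ratio was 0.915 at 25 min and 0.855 at 40 min. Counts and crossings depend on such an offset, and those of the later times were not recomputed under another scaling. How much of their difference from 10 min is due to scaling was therefore not tested. The excess from 0 to 2 kb was smallest at 10 min, with a ratio of 1.11, against 1.39 and 1.48. From 5 to 10 kb the ratio was again lowest at 10 min (0.593, against 0.704 and 0.868), so that there the shortfall was deepest at 10 min. With 1 library for each treatment and time, the differences between times were not tested.

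**Figure D5:**
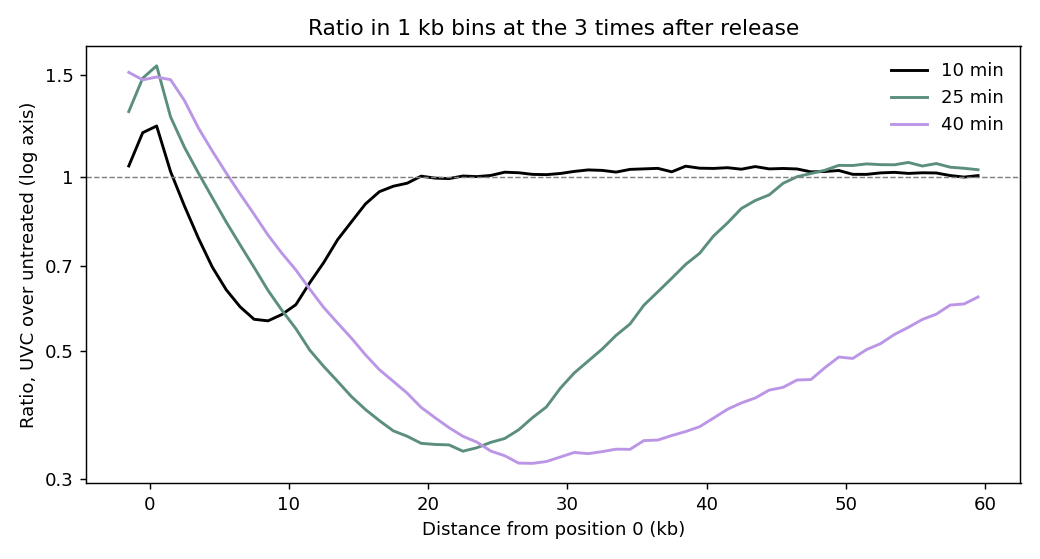
Ratio of irradiated to untreated signal (vertical log axis) in 1 kb bins from -2 to 60 kb (horizontal axis, kb) at 10 min (black), 25 min (green) and 40 min (purple), 1 library a group at each time. The 10 min line passes below 1 nearest to position 0 and returns to 1 by about 20 kb, whereas the 25 min line returns near 47 kb and the 40 min line stays below 1 to the edge of the plot.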

How the data were processed

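Strand-specific libraries of run-on RNA were sequenced as 51 bp single-end reads, per the labels' protocols. BWA 0.5.9 and the hg19 (GRCh37) build are named in the submitters' processing notes; the gene set, strand handling and scaling are not given in the sources used here. The deposited values are signal averaged over genes at each position. Within each library 100% of values were whole multiples of 1 step (within 0.01 step). Scaling affects heights, ratios, the crossing and distances at equal signal, but not fronts at a share of a library's own height or shares within a library.

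Computed here, with Python 3.11.15, numpy 2.4.6, pandas 2.3.3 and matplotlib 3.10.9, were means over windows and bins, their ratio (no pseudocount), and positions on running means of 2 kb, or 1 kb for equal signal. Distal background means the average of the final 10% of positions downstream, and fronts were sought from 2 kb. The functions were tested on simulated profiles. Groups came from the source names. No test was made with 1 library a group, and no gene was named because the profiles hold no value per gene. Alternatives changed the scaling, background, smoothing, front height, fold and bin width. Windows, measures and alternatives were chosen with earlier results of these data known.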

Additional observations from a re-analysis of the deposited data

Results flagged for a closer look

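In 6 windows, of which the 2 nearest overlap, the log2 ratio of irradiated to untreated signal had one sign at 10 min and the other at a later time. The differences between times were not tested, as every treatment and time had 1 library. Between 2 and 5 kb the 10 min value, -0.32, stood against 0.029 (25 min) and 0.29 (40 min). In the wider window from 2 to 10 kb the 10 min value was -0.50 and the 40 min value 0.0072. With the median over positions these 2 values were -0.68 and -0.047, so their signs no longer differed. Between 25 and 50 kb the 10 min value, 0.037, stood against -0.68 (25 min) and -1.43 (40 min). Between 50 and 75 kb the 10 min value, 0.012, stood against -0.62 (40 min). Between 75 and 100 kb the 10 min value, 0.0018, stood against -0.083 (25 min) and -0.196 (40 min), and between 100 and 120 kb the 10 min value, 0.0016, against -0.128 (25 min) and -0.23 (40 min). The 10 min values in the windows past 25 kb, the 25 min value from 2 to 5 kb and the 40 min value from 2 to 10 kb were close to 0. The sign there rests on a small difference. The later values also depended on the scaling. With each profile divided by its mean over all positions, the 40 min values became 0.61, -0.013 and 0.41 in the windows 2 to 10, 50 to 75 and 75 to 100 kb. From 100 to 120 kb the values became 0.24 (25 min) and 0.38 (40 min), and from 75 to 100 kb the 25 min value became 0.29. The 10 min value was then 0.066 in both of these far windows, so the sign there no longer differed between times.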

How the results depend on the processing

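A value was taken to have moved when it changed by more than 0.0103 on the log2 scale (the spread of the far bins), by more than 0.1 kb, or for counts by more than 1.5 times. No paired analysis was possible because the labels carry no replicate numbers and each group holds 1 library. The settings for equal signal, for shares of the wave and for later times and for windows other than 0 to 2, 2 to 10 and 10 to 25 kb were chosen after seeing the data. The 10 min log2 ratios kept their sign in 51 of 56 values under other settings. The 5 exceptions were all in windows from 20 to 25 kb or beyond 75 kb, where the ratio was near 1. Some windows overlap, and division by the distal background shifted every 10 min log2 ratio by only -0.0022. That setting could change a sign only where the ratio was near 1, so the count is a weak check. In the main set 34 values moved and 13 did not. That set held the windows 0 to 2, 2 to 10 and 10 to 25 kb at 10 min. It also held the front lag, crossing, position of the lowest ratio, bin counts and share from 2 to 10 kb. Outside it at least 130 values moved and 65 did not.

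Division by the mean over all positions shifts every 10 min log2 ratio by 0.064. It gave 0.22, -0.44 and -0.16 in the windows 0 to 2, 2 to 10 and 10 to 25 kb, against 0.15, -0.50 and -0.23. It moved the crossing to 2.02 kb and gave 2 higher bins. The shift was larger at 25 min, where the log2 ratio from 2 to 10 kb went from -0.28 to 0.093. At 10 min the same division turned the lag at a signal of 8 to -0.115 kb. A running mean of 2 kb gave -0.14 kb there. Subtracting the distal background gave 0.18 and -0.75 in the first 2 windows. It gave no value from 10 to 25 kb, where the mean over the window lay below that background. Subtracting the lowest smoothed value gave 0.17, -0.63 and -1.88, and the median over positions 0.062, -0.68 and -0.037. The signal from 2 to 10 kb as a share of that from 0 to 2 kb was also compared, irradiated over untreated. It was 0.526, 0.572 and 0.598 under these 3 settings, against 0.635. The lag at 50% of the height (1.32 kb) became 1.56 kb with a running mean of 5 kb, 0.616, 2.41 and 2.79 kb at 75%, 25% and 10% of the height, 1.42 kb with the trough as background, 1.67 kb with none and 1.22 kb with the maximum sought from 5 kb. A running mean of 0.5 kb put the crossing at 1.61 kb, and the lowest ratio at 8.45, 8.17 and 8.67 kb with running means of 0.5, 1 and 5 kb. There were 7 lower and 0 higher bins at a fold of 1.5, 2 higher at a fold of 1.1, 23 lower and 2 higher in bins of 0.5 kb, and 5 lower and 0 higher in bins of 2 kb. Depth is unknown, so how far it limits these values cannot be given.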
